A study of Homo sapiens with 6 samples.

Results

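The genes of homologous recombination and of the Fanconi anemia pathway were followed in TOV21G, an established cell line of ovarian clear cell carcinoma, after knockdown of GYS1 or of p53. The set holds 36 genes, chosen by symbol for what they are known to do in repair, out of 16910 genes in the deposited table. All 36 were in the table, and 35 of them were among the 13235 genes that passed the filter on low counts. RNA was sequenced from 3 groups with 2 libraries each. NC is read from its name as the control siRNA, siGYS1 as siRNA against the glycogen synthase gene GYS1, and sip53 as siRNA against p53. Every library carries the same genotype label, WT, and the labels give no siRNA sequence, dose or time after transfection. All values therefore come from 1 line, and the series asks what GYS1 and p53 do in it. Nothing says that the libraries of a group came from separate cultures, so p-values measure only the spread between these libraries, which may be technical.

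Homologous recombination repairs a broken chromosome by copying the intact sister chromatid. The broken ends are first trimmed to single strands by the MRE11, RAD50 and NBN complex with the nucleases it works with, and BRCA1, PALB2 and BRCA2 then prepare the single strand for the search for its matching sequence. The Fanconi anemia pathway detects crosslinks between the strands of DNA when a replication fork stalls at them: its core complex attaches ubiquitin to FANCD2 and FANCI, and recombination completes the repair. Both pathways act mainly in S and G2 phase, and inherited loss of BRCA1, BRCA2, BRIP1, RAD51C or RAD51D raises the risk of ovarian carcinoma.

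The label of siGYS1 was checked first. GYS1 was at 28.57 and 27.26 FPKM with NC, 1.69 and 1.67 with siGYS1, and 30.38 and 31.39 with sip53, where FPKM are fragments per kilobase of transcript, scaled to library size. The level with siGYS1 was thus a small fraction of that in the other groups, with a log2 fold change against NC of -3.99 (SE 0.11, adjusted p = 1.28e-07 in edgeR's quasi-likelihood test). MDM2, a known p53 target, was at 49.64 and 43.38 FPKM with NC and 14.11 and 12.71 with sip53, which describes a downstream gene and not the target itself. Libraries held 17425000 to 18097337 read counts. The Müllerian lineage marker PAX8 ran from 144.38 to 164.85 FPKM over the 6 libraries. NAPSA, a clear cell marker, stayed between 0.32 and 0.47 FPKM. The 8 clear cell markers together were not steady: they summed to 3776.31 and 3946.3 FPKM with NC and to 1072.99 and 948.85 with sip53, where 2 of 7 tested fell and 2 rose. Most of that sum was SPP1, which encodes osteopontin and fell with sip53 (-2.30, SE 0.10). Of 6 leukocyte markers 4 were in the table, with a summed level of 4.79 to 7.17 FPKM.

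In control cells the 36 genes spanned a wide range of levels per length. With NC, 18 had a mean of at least 10 FPKM, 16 lay from 1 to under 10, and 2 lay under 1. UBE2T, the E2 enzyme that carries ubiquitin to FANCD2, was highest at 69.9 ± 7.06 FPKM (mean ± SD, n = 2), followed by the recombination gene RAD51C at 55.7 ± 2.32 and by FANCI at 41.3 ± 0.389. The spread of neighbours in this order often overlapped: the checkpoint kinase gene CHEK1 (38.0 ± 5.85) and FANCI did not differ beyond their SD. BRCA2 (0.94 ± 0.382) and the core complex gene FANCB (1.17 ± 0.297) were the lowest of the tested members, also within each other's spread. FANCF, the adaptor of the Fanconi core complex, was the member removed by the filter: it had 1 and 8 counts with NC, 6 and 5 with siGYS1 and 2 and 5 with sip53, and 0.02 to 0.15 FPKM.

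Knockdown of p53 was accompanied by lower levels of most of these genes. With sip53, 20 of the 35 tested members fell against NC (57.1%), beside 26.5% of all tested genes that were called lower. The median log2 fold change of the tested members was -0.41, with a range from -1.27 to 0.14, against -0.03 for all tested genes. No member was called higher by edgeR, DESeq2 or limma on FPKM, and 0 were higher at an unadjusted edgeR p below 0.05, whereas 23.4% of all tested genes were called higher. In 27 of the 35 both sip53 libraries lay below both NC libraries in log2 CPM (counts scaled to library size), a pattern found in 41.3% of all tested genes. The summed level of the 36 genes was 523.64 and 525.2 FPKM with NC and 331.34 and 346.26 with sip53, so the groups did not overlap.

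The falls with sip53 are counted at a Benjamini-Hochberg adjusted p below 0.05 over all 13235 genes, with no minimum fold change. Without sip53 replicate 1 the count was 12, beside 16.7% of all tested genes called lower in that fit. The 8 calls that were lost there are BARD1, BRIP1, RAD51AP1, RAD54L, RAD54B, FANCE, FANCG and CHEK1.

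**Figure D1:**
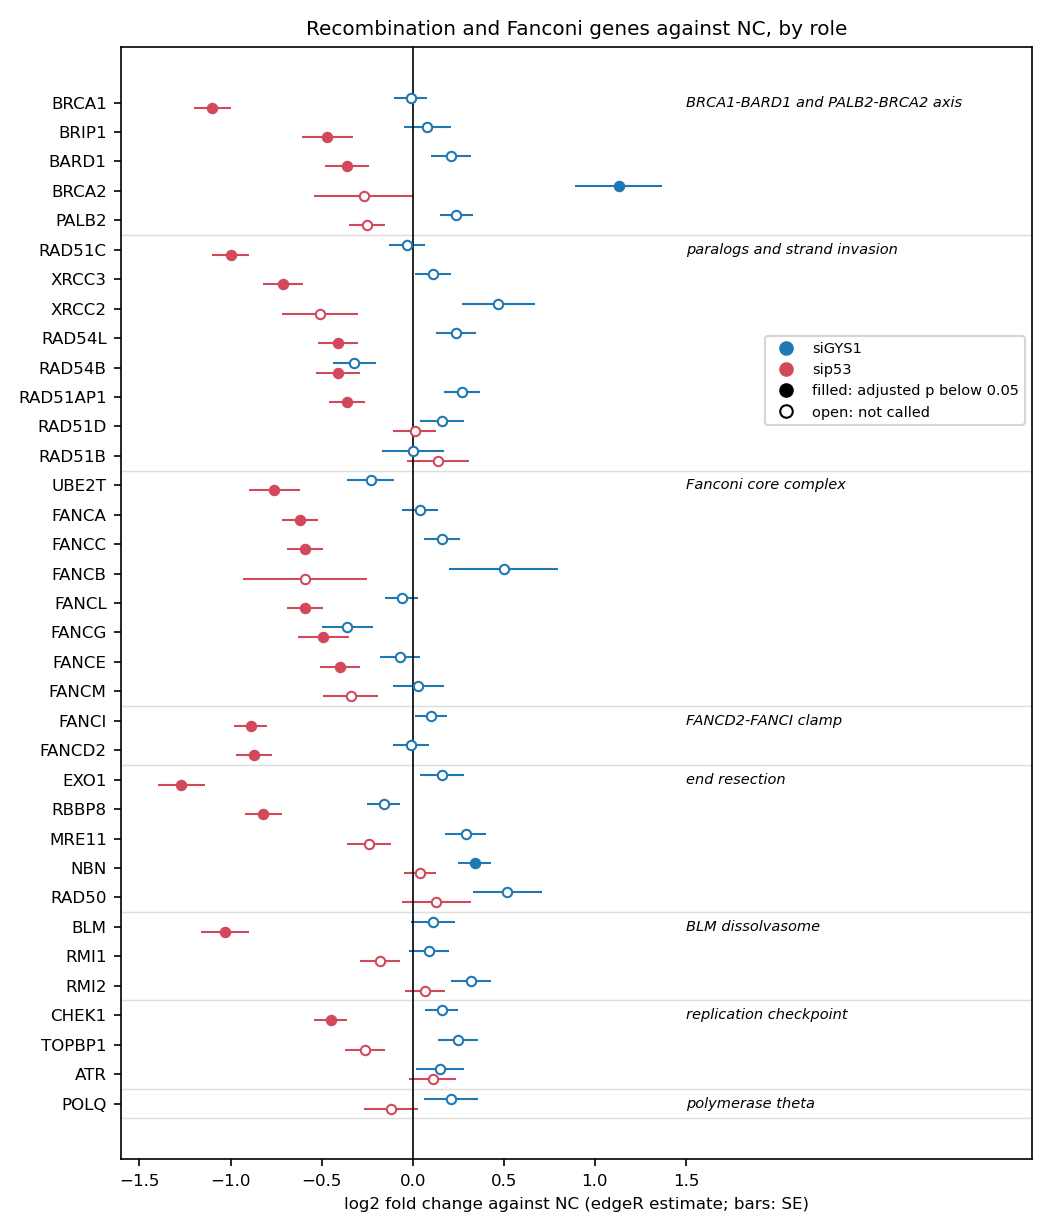
Log2 fold change against NC of the 35 tested members, grouped by role, on the x axis (edgeR estimates, bars are SE; siGYS1 in blue, sip53 in red; filled points have an adjusted p below 0.05). The sip53 points lie mostly left of 0, from EXO1 at -1.27 to RAD51B at 0.14, and the siGYS1 points lie around 0 except for BRCA2 at 1.13.

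Within the BRCA axis, 3 of 5 genes fell with sip53. BRCA1, the ubiquitin ligase that promotes end trimming and PALB2 recruitment, was at 15.45 and 15.69 FPKM with NC, 14.55 and 12.62 with siGYS1, and 6.20 and 6.07 with sip53. Both sip53 libraries were lower than every other library, and BRCA1 was at 46.5% of NC by the fit (log2 fold change -1.10, SE 0.10, adjusted p = 1.77e-05). Its partner BARD1 (-0.36, SE 0.12) and the helicase gene BRIP1, also known as FANCJ (-0.47, SE 0.14), fell less. The call of BARD1 is borderline, since it was lost in 8 of 14 alternatives, DESeq2 and limma on FPKM among them. That of BRIP1 was lost in 3. PALB2, which bridges BRCA1 and BRCA2, was at -0.25 (SE 0.10, adjusted p = 0.0573) and did not pass. BRCA2, which acts on the trimmed single strands, was at -0.27 (SE 0.27, adjusted p = 0.435). That value rests on the NC libraries: it was -0.69 without NC replicate 2, where it passed (adjusted p = 0.0105), and 0.32 without NC replicate 1.

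Of 8 genes of the paralog complexes and of strand invasion, 5 fell with sip53. RAD51C, a paralog found in both paralog complexes, was at 54.08 and 57.36 FPKM with NC, 50.76 and 54.34 with siGYS1, and 23.61 and 24.19 with sip53. The sip53 libraries stood apart from the other 4, at 49.9% of NC by the fit (log2 fold change -1.0, SE 0.10). XRCC3, the partner of RAD51C, fell by 0.71 on the log2 scale (SE 0.11). The translocase genes RAD54L (-0.41, SE 0.11) and RAD54B (-0.41, SE 0.12) and RAD51AP1, an accessory factor of strand invasion (-0.36, SE 0.10), fell by smaller amounts. Of 14 alternatives, RAD54B lost its call in 4, RAD51AP1 in 3 and RAD54L in 2. The paralog genes RAD51B (0.14, SE 0.17), RAD51D (0.01, SE 0.12) and XRCC2 (-0.51, SE 0.21, adjusted p = 0.072) did not pass, although they belong to the same complexes. Neither the difference between RAD51C and these paralogs nor its cause was tested. XRCC3 shares 76.7% of its exon bases with KLC1 on the other strand and RAD54B shares 59.1% with FSBP on its own strand, so reads of these pairs may not be told apart where the strandedness of counting is not given.

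Most Fanconi core genes fell by similar amounts. In the core complex with UBE2T, 6 of 8 tested genes fell, with a median of -0.59 and a range from -0.76 to -0.34. UBE2T was at 64.92 and 74.90 FPKM with NC, 56.30 and 56.32 with siGYS1, and 32.74 and 43.48 with sip53. Its sip53 libraries were the lowest of the 6 and differed from each other more than those of most members (log2 fold change -0.76, SE 0.14, adjusted p = 0.00139). FANCA, a scaffold of the core complex (-0.62, SE 0.10), FANCC (-0.59, SE 0.10) and the ubiquitin ligase gene FANCL (-0.59, SE 0.10) fell to nearly the same degree. FANCG (-0.49, SE 0.14) and FANCE (-0.40, SE 0.11), further subunits of the complex, fell as well. Of 14 alternatives, FANCE lost its call in 4, DESeq2 among them, and FANCG in 2. FANCB (-0.59, SE 0.34, adjusted p = 0.177) and the translocase gene FANCM (-0.34, SE 0.15, adjusted p = 0.0814) did not pass; FANCB had only 67 and 47 counts with NC and 40 and 31 with sip53. Exon overlaps on the other strand touch FANCA (ZNF276, 23.6% of its exon bases), RAD54L (LRRC41, 25.1%) and FANCL (VRK2, 18.7%).

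The substrates of the core complex fell together. FANCI was at 41.07 and 41.62 FPKM with NC, 51.53 and 44.39 with siGYS1, and 22.70 and 25.36 with sip53 (log2 fold change -0.89, SE 0.09, adjusted p = 5.19e-05). FANCD2 was at 13.50 and 11.49 FPKM with NC, 11.92 and 11.59 with siGYS1, and 5.93 and 6.54 with sip53 (-0.87, SE 0.10). In both genes every sip53 library lay below all 4 other libraries. These partners form the clamp that closes around DNA once ubiquitin is attached.

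End trimming was split. EXO1, a long-range exonuclease, had the largest fall of all members, from 12.55 and 12.72 FPKM with NC to 4.07 and 6.58 with sip53, and stood at 14.49 and 10.92 with siGYS1. It was 2.40-fold lower with sip53 than with NC (log2 fold change -1.27, SE 0.13, adjusted p = 4.43e-05), and its sip53 libraries differed from each other by 0.38 in log2 CPM. RBBP8, which encodes CtIP, the starter of trimming, was at 30.09 and 29.36 FPKM with NC, 25.27 and 24.54 with siGYS1, and 18.01 and 16.54 with sip53 (-0.82, SE 0.10). By contrast no subunit of the MRE11, RAD50 and NBN complex passed: MRE11 was at -0.24 (SE 0.12), RAD50 at 0.13 (SE 0.19) and NBN at 0.04 (SE 0.09). Both sip53 libraries of MRE11 lay below both NC libraries, and MRE11 passed as lower in 2 of 14 alternatives (range -0.31 to -0.17). Whether these subunits differ from EXO1 and RBBP8 was not tested. RAD50 passed as higher without NC replicate 1 (0.52, adjusted p = 0.0228), and 79.7% of its exon bases are also annotated to AC116366.3 on the same strand.

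Among the genes that act late or signal, BLM and CHEK1 fell. BLM, the helicase that dissolves joined chromosomes, was at 5.61 and 5.73 FPKM with NC, 6.32 and 5.35 with siGYS1, and 2.39 and 2.87 with sip53 (log2 fold change -1.03, SE 0.13, adjusted p = 0.000154). Its partners RMI1 (-0.18, SE 0.11) and RMI2 (0.07, SE 0.11) did not pass. CHEK1, the kinase downstream of ATR, was at 33.83 and 42.10 FPKM with NC, 42.38 and 33.77 with siGYS1, and 30.52 and 27.84 with sip53. The sip53 libraries were the lowest again, but the drop was smaller (-0.45, SE 0.09, adjusted p = 0.0031), and the call was lost without sip53 replicate 1 (adjusted p = 0.0533) and with limma on FPKM. ATR, the kinase activated at stalled forks, was at 0.11 (SE 0.13) and its activator TOPBP1 at -0.26 (SE 0.11, adjusted p = 0.0699). TOPBP1 is a borderline case, since it passed as lower in 7 of 14 alternatives, as XRCC2 did in 5. POLQ, the polymerase of the alternative end joining that competes with recombination, was at 3.82 and 3.0 FPKM with NC, 4.55 and 3.30 with siGYS1, and 2.80 and 3.32 with sip53, with overlap between the groups (-0.12, SE 0.15, adjusted p = 0.532).

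**Figure D2:**
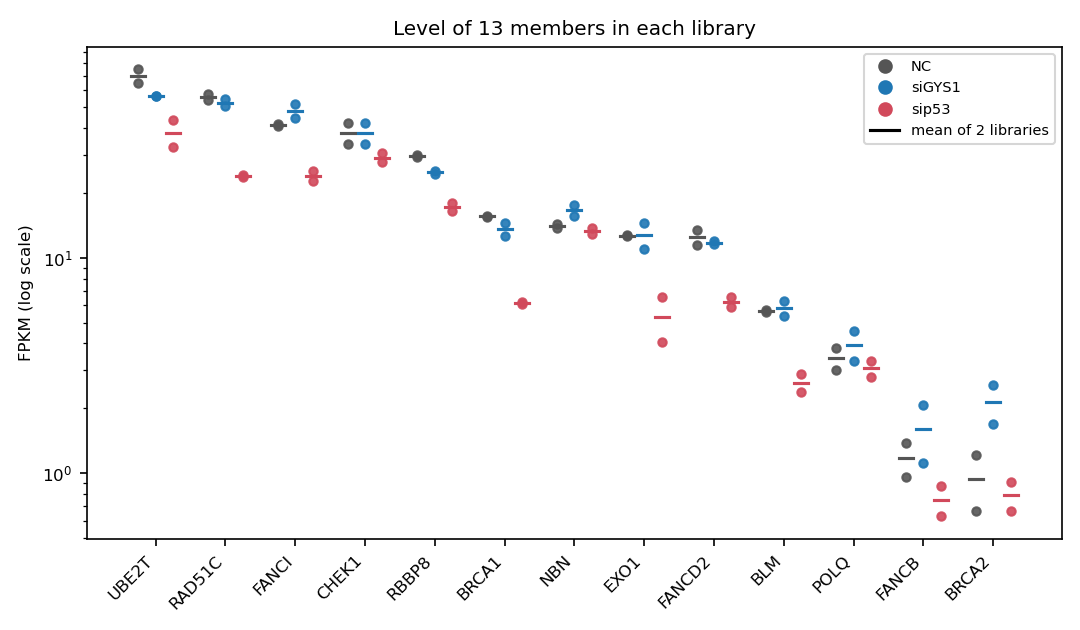
FPKM (y axis, log scale) of 13 members in each of the 6 libraries, ordered by level with NC; points are libraries and bars the mean of 2 libraries (NC in grey, siGYS1 in blue, sip53 in red). For RAD51C the sip53 libraries sit at 23.61 and 24.19 FPKM, apart from the other 4 at 50.76 to 57.36, while the NBN points of all groups lie between 12.91 and 17.63.

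Since many members moved together, their promoters were read from a supplied set of RefSeq windows (assembly GRCh38.p14). This set gave at least 1 window for 32 of the 36 genes. It held none for RMI2, FANCI, RAD54B and NBN, which does not mean that RefSeq lacks their starts. FANCI and RAD54B, which fell with sip53, are thus left out of the counts below. Letters were searched on both strands in the 250 bases before each start, for all starts listed. Some of these windows overlap annotated exons. Those of FANCL, TOPBP1 and MRE11 do so over all 250 bases, and the RMI1 window with the E2F word over 156. Those of FANCE and BRIP1 do not overlap any. The words TTTCCCGC, TTTCGCGC, TTTGCCGC and TTTGGCGC, which E2F factors bind, were in 3 of the 31 tested members with a window (9.68%; FANCA, FANCC and RMI1) and in 5.6% of 10438 tested genes with one. The words TTTGAA and TTCGAA, known as the cell cycle genes homology region, were in 4 of 31 (12.9%; BRIP1, FANCC, UBE2T and POLQ) and in 13.3% of the genes. CCAAT was in 13 of 31 (41.9%) and in 41.6%. No word of one kind contains a word of another. Of the 18 members with a window that fell with sip53, 2, 3 and 9 held these words in that order, and of the 13 that did not fall, 1, 1 and 4. For the homology region words and CCAAT the members' shares thus lie near those of all genes. For the E2F words the members' share is higher but rests on 3 genes, and the difference was not tested. A match is a run of letters, not a site.

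The 250 upstream bases of 5 members, chosen after their values were seen, show how much these promoters vary. In the windows shown, FANCC holds 2 E2F words and 1 homology region word, and BRIP1 holds 1 homology region word and 3 CCAAT. FANCA holds 1 E2F word and 1 CCAAT. RAD51C fell with none of the words, and FANCM did not pass and holds 2 CCAAT. Matched words are in capitals on the strand of the gene. The FANCC window shown lies at chr9:95317710-95317959 on the minus strand. Another listed start of FANCC has its window at chr9:95317255-95317504 (minus), which holds none of the words. BRIP1 lies at chr17:61863529-61863778 (minus), FANCA at chr16:89816648-89816897 (minus), RAD51C at chr17:58692323-58692572 (plus) and FANCM at chr14:45135680-45135929 (plus). RAD51C also has another listed start, whose window holds none of the words either.
FANCC: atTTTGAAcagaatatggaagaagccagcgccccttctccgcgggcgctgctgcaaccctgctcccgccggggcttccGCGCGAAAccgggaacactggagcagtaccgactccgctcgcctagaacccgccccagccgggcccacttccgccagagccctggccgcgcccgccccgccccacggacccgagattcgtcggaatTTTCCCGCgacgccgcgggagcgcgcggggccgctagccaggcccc
BRIP1: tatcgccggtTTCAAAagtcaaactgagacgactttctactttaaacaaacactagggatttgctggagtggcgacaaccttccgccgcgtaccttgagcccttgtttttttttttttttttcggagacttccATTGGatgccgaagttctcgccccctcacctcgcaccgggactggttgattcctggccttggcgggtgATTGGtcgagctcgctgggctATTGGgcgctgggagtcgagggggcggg
FANCA: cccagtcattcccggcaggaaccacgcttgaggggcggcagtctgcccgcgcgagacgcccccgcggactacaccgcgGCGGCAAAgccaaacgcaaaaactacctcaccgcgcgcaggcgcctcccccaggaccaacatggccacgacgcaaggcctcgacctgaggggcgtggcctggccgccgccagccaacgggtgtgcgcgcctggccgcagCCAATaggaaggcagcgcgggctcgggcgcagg
RAD51C: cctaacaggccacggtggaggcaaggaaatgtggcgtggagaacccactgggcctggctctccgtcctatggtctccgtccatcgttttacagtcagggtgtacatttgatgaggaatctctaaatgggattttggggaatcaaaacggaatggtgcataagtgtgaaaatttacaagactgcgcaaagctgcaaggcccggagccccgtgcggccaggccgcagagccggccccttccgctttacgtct
FANCM: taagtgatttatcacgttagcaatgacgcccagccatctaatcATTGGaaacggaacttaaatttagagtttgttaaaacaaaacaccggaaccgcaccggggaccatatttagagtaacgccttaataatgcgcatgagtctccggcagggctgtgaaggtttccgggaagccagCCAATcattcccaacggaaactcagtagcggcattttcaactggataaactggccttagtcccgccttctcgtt

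The falls of the members with sip53 stood beside a general fall of S phase genes. Of 24 S phase and proliferation genes 22 fell (91.7%), beside 26.5% of all tested genes called lower. Their median log2 fold change was -0.86, and their summed level was 1392.44 and 1487.81 FPKM with NC against 659.9 and 758.09 with sip53. The repressor E2F8 (-1.69, SE 0.13), the activator E2F2 (-1.54, SE 0.12) and the proliferation marker MKI67 (-1.54, SE 0.14) fell furthest. Replication-dependent histones, kept as a sign of RNA quality, moved the other way: 5 of 6 tested rose (83.3%), beside 23.4% of all tested genes called higher. The list's summed level was 69.12 and 82.5 FPKM with NC and 128.0 and 109.95 with sip53. Marker lists of other cell types were at low or mixed levels: 3 of 4 endothelial markers were in the table, with a summed level of 0.35 to 0.48 FPKM with NC and 0.93 to 1.53 with sip53, and VWF was at 0.01 FPKM or less. All 6 fibroblast markers were in the table, with a sum of 176.74 to 177.65 FPKM with NC and 92.27 to 92.99 with sip53, carried by COL1A2, while COL3A1 and LUM stayed at or below 0.09. Of the 4 tested, 3 fell and DCN rose (4.23, SE 0.40, on counts), although its FPKM were 0.31 and 6.97 with NC and 4.47 and 3.12 with sip53. The 4 leukocyte markers summed to 4.79 and 4.9 FPKM with NC and 6.21 and 7.17 with sip53, most of it CD68. In bulk RNA, fewer cells in S phase and less of these transcripts per cell cannot be told apart. What part the proliferation genes, the histones or these markers have in the members' falls was not tested.

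Genes of the same pathways outside the set were counted as well. Of 47 further recombination and Fanconi genes, 23 fell with sip53 and 1 rose, BABAM2, with a median of -0.32. HELLS, a chromatin remodeler (-1.34, SE 0.09), BRME1, a partner of meiotic recombination (-1.29, SE 0.16), and CENPS, which works with FANCM (-1.22, SE 0.16), fell furthest. Of 25 damage signalling genes 9 fell and 5 rose, and CLSPN, the adaptor between ATR and CHEK1, fell most (-1.17, SE 0.12), before the histone gene H2AX (-0.85, SE 0.15) and TIPIN, a fork protection gene (-0.78, SE 0.13). The share of members called lower was 57.1%, beside 48.9% of the further recombination and Fanconi genes, 36% of the damage signalling genes and 26.5% of all tested genes. The difference between lists was not tested.

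Other repair routes were counted with sip53 beside all tested genes, of which 26.5% were called lower and 23.4% higher. Of 17 end joining genes 9 fell (52.9%) and 1 rose, with PRKDC, the catalytic subunit of the DNA-dependent protein kinase, at -1.58 (SE 0.16), TDP2 at -0.93 (SE 0.09) and PARP1 at -0.89 (SE 0.08). Nucleotide excision repair had 7 falls (38.9%) and 2 rises (11.1%) among 18 genes, led by the p53 targets XPC (-1.30, SE 0.09) and DDB2 (-0.88, SE 0.10) with ERCC5 (-0.89, SE 0.11). Base excision repair had 8 falls (44.4%) and 1 rise among 18 genes, led by the ligase gene LIG1 (-1.24, SE 0.11) and by MUTYH (-0.71, SE 0.14). Of 6 tested mismatch repair genes 2 fell (33.3%), MSH6 (-0.41, SE 0.09) and PMS1 (-0.30, SE 0.09).

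**Figure D3:**
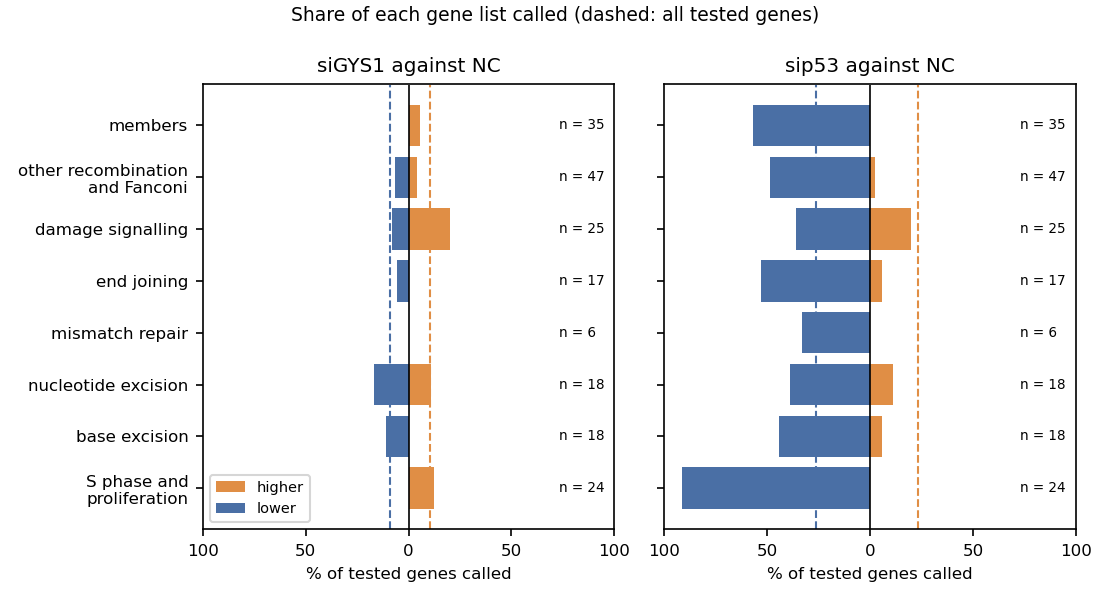
Percent of tested genes called higher (orange, right of 0) and lower (blue, left of 0) in each gene list, for siGYS1 and sip53 against NC; n is the number of tested genes and dashed lines give the share of all tested genes. With sip53, 57.1% of the members and 91.7% of S phase genes were lower, against 26.5% of all genes, while with siGYS1 the members' bars stay short at 5.71% higher.

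Knockdown of GYS1 left most members near their control level. With siGYS1, 2 of 35 members rose against NC (5.71%), beside 10.4% of all tested genes called higher and 19.7% called in either direction. None fell in edgeR, DESeq2 or limma on FPKM, and 2 had an unadjusted edgeR p below 0.05 in that direction, beside 9.24% of all tested genes called lower. The median of the tested members was 0.15, with a range from -0.36 (FANCG) to 1.13 (BRCA2), against -0.01 for all genes. In log2 CPM, both siGYS1 libraries lay above both NC libraries in 15 of the 35 members (28.5% of all genes) and below them in 5 (30.2%). All 20 members that fell with sip53 were without a call with siGYS1. Both comparisons use the same NC libraries, so their values are given side by side.

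BRCA2 was the member that rose most with siGYS1. It was at 1.21 and 0.67 FPKM with NC, 1.69 and 2.57 with siGYS1, and 0.91 and 0.67 with sip53, and its counts in the same order were 193 and 96, 288 and 311, and 117 and 108. Both siGYS1 libraries were above the other 4 on each scale (2.18-fold over NC; log2 fold change 1.13, SE 0.24, adjusted p = 0.012). The size of the rise rests on which NC library is used: it was 0.71 without NC replicate 2 (adjusted p = 0.0292) and 1.72 without NC replicate 1 (adjusted p = 0.000534). The call was lost with limma on log2(FPKM + 0.1) (adjusted p = 0.0503).

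NBN, the subunit that recruits the damage kinase ATM, rose by less. It was at 14.27 and 13.72 FPKM with NC, 17.63 and 15.62 with siGYS1, and 13.78 and 12.91 with sip53, and both siGYS1 libraries were the highest of the 6 (log2 fold change 0.34, SE 0.09, adjusted p = 0.0321). That call was lost in 8 of 14 alternatives. Leaving out the first or the second NC library gave adjusted p-values of 0.112 and 0.178. They were 0.0977 without siGYS1 replicate 1, and 0.0752 and 0.0749 when the first or the second sip53 library was left out. RAD50, of the same complex, was at 17.17 and 10.72 FPKM with NC and 22.71 and 16.66 with siGYS1, with overlap on this scale, and did not pass (0.52, SE 0.19, adjusted p = 0.0832). It passed as higher in 4 of 14 alternatives, among them without NC replicate 1 (0.90, adjusted p = 0.00677) and without siGYS1 replicate 2 (0.68, adjusted p = 0.00399), and was at 0.22 without NC replicate 2. MRE11 was at 0.29 (SE 0.11, adjusted p = 0.102).

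The count of rises with siGYS1 depended on single libraries. It was 11 without siGYS1 replicate 2, beside 18.7% of all tested genes called higher in that fit, and 1 without NC replicate 2 (3.23% of all genes), siGYS1 replicate 1 (7.99%), sip53 replicate 1 (5.91%) or sip53 replicate 2 (6.01%). The share over all genes moved in the same direction as the members' count in these fits, but not by the same factor. The members' median was 0.05 without siGYS1 replicate 1, 0.05 with length-corrected offsets and 0.04 with limma on FPKM, and 0.23 without siGYS1 replicate 2, against 0.15.

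The libraries of NC and those of siGYS1 differed from each other along transcript length, and those of sip53 differed little. Across 11172 genes the log2 level of a library relative to the mean of all libraries had a Spearman correlation with exon length of 0.41 in siGYS1 replicate 1 and -0.29 in NC replicate 2, and between -0.08 and 0.04 in the other 4. Among the 35 members, replicate 2 minus replicate 1 of NC ran from -1.0 in BRCA2 to 0.21 in RAD51B in log2 CPM, with RAD50 at -0.69. These differences had a correlation with exon length of -0.45 in NC, -0.28 in siGYS1 and -0.19 in sip53 (35 genes that share libraries, a description without a test). BRCA2 has 12273 exon bases and RAD50 has 9771. With offsets that remove each library's length trend, 5 members rose and 1 fell with siGYS1, beside 13.8% and 12% of all tested genes, so the rises were near the background share. BRCA2 kept its call there (1.00, adjusted p = 0.00705). NBN did so too (0.31, adjusted p = 0.0159).

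**Figure D4:**
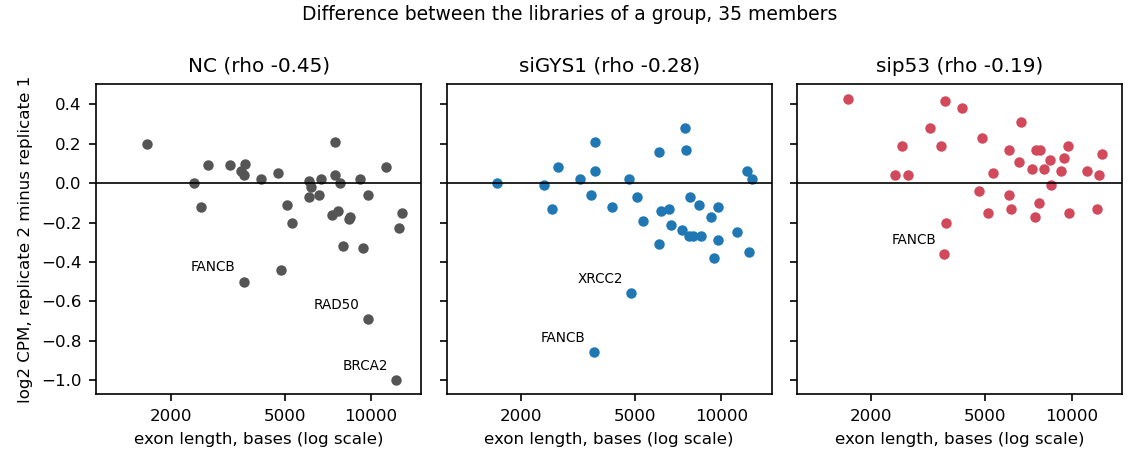
Difference between replicate 2 and replicate 1 in log2 CPM (y axis) against exon length in bases (x axis, log scale) for the 35 tested members in each group; each point is a gene. In NC the points of BRCA2 (-1.0) and RAD50 (-0.69) lie lowest among long transcripts, and in sip53 all points lie between -0.36 and 0.43.

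The share of other repair genes called with siGYS1 differed between lists. Of all tested genes 10.4% were called higher and 9.24% lower. Among the 47 further recombination and Fanconi genes, 2 rose (4.26%) and 3 fell (6.38%). SLX1A, a nuclease subunit, fell most (-1.0, SE 0.11), REV3L, the catalytic subunit of a translesion polymerase, rose by 0.70 (SE 0.16), and the helicase gene FBH1 was at -0.58 (SE 0.08). Damage signalling had 5 rises (20%) and 2 falls (8%) among 25 genes. It was led by rises of the G2 checkpoint kinase gene WEE1 (1.21, SE 0.10), the phosphatase gene CDC25A (0.86, SE 0.13) and RIF1 (0.67, SE 0.15), which protects ends from trimming. Of 24 S phase genes 3 rose, MCM2 (0.43, SE 0.09), TOP2A (0.38, SE 0.10) and CCNA2 (0.37, SE 0.11), and the list's summed level was 1382.71 and 1462.91 FPKM. End joining had 1 call, POLL (-0.30, SE 0.09). Nucleotide excision repair had 3 falls (16.7%) and 2 rises (11.1%) among 18 genes. DDB1 (-0.71, SE 0.09), GTF2H5 (-0.46, SE 0.11) and CETN2 (-0.43, SE 0.12) fell there, and GTF2H1 (0.39, SE 0.10) and RAD23B (0.35, SE 0.08) rose. Base excision repair had 2 falls (11.1%) among 18 genes, MUTYH (-0.67, SE 0.14) and APEX2 (-0.65, SE 0.11).

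The knockdowns were then compared with each other. The difference is taken between siGYS1 and sip53, but the scaling and the estimate of spread come from the fit of all 6 libraries, NC included. With siGYS1, 25 of 35 members were higher than with sip53 (71.4%), beside 22.5% of all tested genes called higher and 43.4% called in either direction. A fit of only both compared groups also gave 25, beside 22.3% of all tested genes called higher. The count lower was 0 in edgeR, DESeq2 and limma on FPKM and also at an unadjusted edgeR p, beside 20.9% of all genes called lower. The median difference was 0.55 on the log2 scale, against 0.01 for all genes. In 30 members both siGYS1 libraries lay above both sip53 libraries (36.6% of all genes). Of the 25, 18 had fallen with sip53 against NC and 7 had not been called there: BRCA2, PALB2, XRCC2, FANCB, MRE11, NBN and TOPBP1. Both comparisons use the same sip53 libraries, so this overlap is not independent agreement.

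EXO1 had the largest difference between the knockdowns, 2.68-fold higher with siGYS1 (log2 difference 1.42, SE 0.13, adjusted p = 2.73e-05). BRCA2 followed (1.39, SE 0.25, adjusted p = 0.00164), then BLM (1.13, SE 0.13) and BRCA1 (1.09, SE 0.10). FANCB reached the same size as BRCA1 with a larger error: it was at 1.38 and 0.96 FPKM with NC, 2.07 and 1.12 with siGYS1, and 0.87 and 0.63 with sip53 (1.09, SE 0.32, adjusted p = 0.0216). Its siGYS1 libraries are far apart, and the call was lost without siGYS1 replicate 1 (0.59, adjusted p = 0.142). It was also lost when either sip53 library was left out, with adjusted p-values of 0.0658 and 0.144. All 5 genes of the BRCA axis, both clamp genes, 6 of 8 tested core complex genes, 5 of 8 paralog and strand invasion genes and 4 of 5 end trimming genes were higher with siGYS1. RAD54B (0.09, SE 0.12) and FANCG (0.13, SE 0.14), which fell with sip53, were not called here, and both stood below 0 with siGYS1 against NC (-0.32 and -0.36) without a call. RAD51B, RAD51D, FANCM, RMI1, RMI2, RAD50, ATR and POLQ also did not pass, at -0.15 to 0.39. The difference for UBE2T, 0.53 (SE 0.14), was 0.33 and lost its call without sip53 replicate 1 (adjusted p = 0.124). XRCC2 and TOPBP1 lost theirs without the same library, MRE11 without sip53 replicate 2, and BRIP1 without either. The calls of FANCE and NBN were the least stable, lost in 9 and 6 of 14 alternatives, and that of CHEK1 was lost in 2.

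Members of 1 complex did not all move alike. FPKM and counts also disagreed for a gene: RAD51B was at 9.55 and 4.48 FPKM with sip53 and at 5.37 and 4.81 with NC, while its counts were 111 and 99 against 94 and 109. Of the 20 falls with sip53, 12 kept their call in all 14 alternatives: BRCA1, RAD51C, XRCC3, FANCA, FANCC, FANCD2, FANCI, FANCL, UBE2T, EXO1, BLM and RBBP8. Over those alternatives BRCA1 ranged from -1.33 to -1.07, RAD51C from -1.22 to -0.92 and UBE2T from -1.0 to -0.56. Of the 25 differences between the knockdowns, 16 were kept, and of the 2 rises with siGYS1 neither was. In either direction 49.9% of all tested genes were called with sip53, so single calls are common there.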

How the data were processed

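RNA-seq was deposited for 6 libraries of TOV21G, 2 per group, and groups were taken from the sample titles. The labels' protocol is a general text that names poly(A) enrichment and also allows removal of ribosomal RNA, so the method used is not settled. The submitters' processing notes name several alternative aligners and counters (among them Salmon, featureCounts, HTSeq, TopHat and STAR) with no version or role, and a mouse build (mm10), while the identifiers are human. The sources used here do not say which of them made the table or whether counting used strand.

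Per the file headers, the authors deposited read counts and FPKM for each library. Of the deposited count values 16.8% to 18.1% per library are not whole (tolerance 1e-09), so these estimated counts were rounded to whole numbers. The FPKM of the authors were used as levels and in limma. A further 12 per-sample columns were not used. Library totals were 17425000 to 18097337, which limits precision for genes of low count such as BRCA2 and FANCB.

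The model was edgeR 4.0.16 under R 4.3.3 (filterByExpr with a minimum count of 10, TMM, glmQLFit, glmQLFTest), with all 6 libraries in 1 fit and 3 residual degrees of freedom. The p-values were adjusted over all 13235 tested genes (Benjamini-Hochberg). The SE is the absolute log2 fold change over the square root of the F statistic. Exon lengths and overlaps came from GENCODE 29, in which 16830 of 16910 rows were found. The procedure was tested on simulated data with 1 dispersion for all genes (0.0064) and no length trend. That test therefore does not cover the length differences or the uneven spread of these libraries. Alternatives were RLE factors, DESeq2 1.42.0, no filter, only both compared groups, a replicate block, limma 3.58.1 on log2(FPKM + 1) and log2(FPKM + 0.1), length-corrected offsets and leaving out each library.

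The members and lists were chosen with earlier results of these data known. Values per library are given for GYS1, for up to 8 called members of largest change with sip53 against NC, up to 4 in each of the other comparisons and 1 member of each role otherwise unnamed, and up to 3 called genes of other lists. RAD50, RAD51B, FANCF, BABAM2, GTF2H1, RAD23B and the marker genes were given values outside this rule, after their values were seen. Some genes of these lists, and the gene targeted by sip53, are not reported here.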

Additional observations from a re-analysis of the deposited data

How the results depend on the processing

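Counts with sip53 against NC and between the knockdowns were steadier than those with siGYS1. The 2 members higher with siGYS1 became 1 with only both compared groups (6.19% of all tested genes were called higher in that fit), 10 with the replicate block (19.1%), 1 with limma on log2(FPKM + 1) (4.68%), 0 with limma on log2(FPKM + 0.1) (4.87%) and 5 with length-corrected offsets (13.8%), and 1 to 11 when single libraries were left out (3.23% to 18.7%). The 0 members lower with siGYS1 became 2 with the replicate block (16.1% of all genes lower) and 1 with length-corrected offsets (12%). This count also changed when single libraries were left out. With sip53, the 20 lower members were 16 with DESeq2 (20.2% of all genes lower) and 19 with limma on log2(FPKM + 1) (28.1%). Without single libraries the members' median log2 fold change with sip53 ranged from -0.48 to -0.31, against -0.41. RAD50 was at 0.52 without NC replicate 1. No value reversed its call. The cause of these changes was not tested. Of single-member values over all settings, 1287 kept their side of the threshold, 61 passed it, 64 lost it and 58 changed sign with no call in either fit. The labels do not say that same-numbered libraries share a culture or day, and the data do not settle it: the correlation of their deviations was 0.28 for NC and siGYS1, -0.02 for NC and sip53 and 0.13 for siGYS1 and sip53. With the replicate block, the 20 falls with sip53 were 26 (31.3% of all genes lower) and the 25 differences between the knockdowns were 30 (27.8% higher). With 2 libraries per group small changes such as that of NBN are not settled, and the low counts of FANCB go with the largest SE among the members.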

Other observations

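Genes that answer to p53 moved in both directions with sip53. Of 21 p53 response genes 8 fell (38.1%) and 5 rose (23.8%), beside 26.5% and 23.4% of all tested genes. The share that rose was thus near that of all genes. MDM2, the inhibitor of p53 (-1.58, SE 0.10), FDXR, a mitochondrial reductase (-1.36, SE 0.12), and RRM2B, a ribonucleotide reductase subunit (-1.02, SE 0.15), fell furthest. With siGYS1, 10 of the 21 rose (47.6%), beside 10.4% of all tested genes, led by BTG2 (1.32, SE 0.10), CCNG1 (0.75, SE 0.08) and TP53INP1 (0.63, SE 0.11). Of 12 genes of the DREAM and RB families, which repress cell cycle genes, 4 fell with sip53 (33.3%) and 1 rose (8.33%). LIN52, a DREAM subunit, was at -1.11 (SE 0.15), RBL1 at -0.89 (SE 0.13) and RBL2 at -0.78 (SE 0.15). LIN52 also fell with siGYS1 (-1.47, SE 0.15), where MYBL2 (0.49, SE 0.12) and RBL1 (0.48, SE 0.12) rose.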
